A study of Arabidopsis thaliana with 30 samples.

Results

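The comparison of high with low abscisic acid (ABA) status in shoots sets 3 shoot libraries of ABA-treated wild type against 3 shoot libraries of an ABA-deficient mutant. The members were chosen by the sample titles: 3 Col-0 shoot libraries after ABA (high), 3 aba2-3 shoot libraries after mock treatment (low), and 3 Col-0 shoot libraries after mock treatment as the middle step. These are 9 of the 30 libraries of the series, which also holds roots and seedlings given the auxin indole-3-acetic acid (IAA). All 3 groups were dark-grown Arabidopsis thaliana seedlings, 5 days old, kept for 1 day in light and 4 days in darkness. The high group is Col-0 (spelled Col-O in the labels) held for 2 h in liquid medium with 10 µM ABA. The middle group is Col-0 held for the same time in medium with the ethanol solvent. The low group is aba2-3, a line mutated in ABA2, in the same solvent. Shoot and root were cut apart at their junction before RNA was taken. ABA was given to Col-0 only, so the high and the low group differ in genotype as well as in treatment, and a difference between them cannot be told apart into those. ABA content itself was not measured, and "status" names the groups as labelled.

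ABA is the hormone of seed maturation and water shortage. It is made from carotenoids. The ABA2 protein, a short-chain dehydrogenase, catalyses a late step of that route. ABA bound by receptors of the PYR/PYL family inhibits clade A PP2C phosphatases, which frees SnRK2 kinases to phosphorylate bZIP transcription factors that act on promoters with an ACGTG core. In young seedlings ABA is best known for slowing growth and switching on protective genes such as dehydrins.

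Depth did not part the groups. The library totals lay between 22.4 and 31.7 M counts, apart from Col-0 mock shoot replicate 2 with 99.3 M. Each library was counted as a replicate, as its title names it. All 9 replicate pairs differed by far more than sampling noise, with a chi-square of 16.8 or more for each degree of freedom. That spread does not show that the replicates were separate cultures. ABA2 (AT1G52340) stood at 8.68, 10 and 11.3 counts scaled to a common library size (CPM) in the low libraries, at 10, 11.5 and 11.1 CPM in the middle and at 12.6, 7.36 and 7.95 CPM in the high libraries. The groups overlap, and the whole-gene count does not show a mutation inside the transcript. Its exons also share 121 bases with AT1G52330, so its level is uncertain to that extent. AT3G01345, an uncharacterized gene, did part the genotypes, with 0.954 CPM or less in the low libraries and 24 CPM or more in the other 6. It was picked with earlier results of these data known, so it is no independent check of the labels. The label "shoot" was checked against marker lists. Shoot apex and leaf markers summed to 41603 to 66319 CPM in the low group, 19189 to 49597 in the middle and 35860 to 41910 in the high, against 5755 or less in the root libraries of these treatments. The 12 root markers summed to 336 to 402 CPM in the low, 372 to 587 in the middle and 496 to 562 in the high shoots, against 1112 to 1528 in those roots. Of these 12, PLT1 and PLT2, which define the root stem cell region, were at 0 in all 3 high shoot libraries. The summed level of the 12 was nevertheless above that of the low shoots. In the low and the middle shoots 0 of the 12 were at 0 in all 3 libraries. Col-0 mock shoot replicate 1 stood apart: it held 338 shoot-signature genes at a median 39.8% of their level in the aba2-3 IAA shoots, against 69.3% or more in the other 8. Root-signature genes (43 genes) stood at 2.88% to 4.71% of their root level in the low libraries, 1.38% to 3.62% in the middle and 0.532% to 1.62% in the high. The same genes were at 35.5% to 45.3% of that level in Col-0 ABA roots and at 96.6% to 113% in aba2-3 mock roots. In bulk tissue, fewer cells of a type and less RNA per cell cannot be told apart.

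High against low ABA status was a broad contrast. Of 22156 genes tested, 4543 (20.5%) were called, meaning an edgeR adjusted p under 0.05. Of these, 2301 were higher in the high group (10.4%) and 2242 were lower (10.1%). The median called gene moved by 1.01 on the log2 scale when higher and by 1.04 when lower, and 196 rose and 256 fell by at least 8-fold. The median over all genes tested was -0.09. The 2 measures of root RNA differed between high and low shoots. The root-signature genes were lower in the high libraries, while the summed level of the root markers was higher. Of the 12 root markers, 2 were called higher and 2 lower, with a median log2 difference of 0.2 beside -0.09 over all genes. The part of root RNA in the calls was not tested. Multiplying root levels by the signature share, which is itself lower in ABA-treated roots, gives over 50% of the drop in 96 of the 2242 falling genes (4.28%). With covariates for the RNA of the other tissue, 1703 of the rising and 1192 of the falling genes were called again.

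The 10 largest rises were taken among genes with an average log2 CPM of at least 3 over all 30 libraries, roots included. They were led by galactinol synthase GolS2 (AT1G56600), which starts the synthesis of raffinose sugars. GolS2 stood at 0.946, 1.27 and 0.716 CPM in the low libraries, 4.74, 1.86 and 2.33 CPM in the middle, and 374, 384 and 417 CPM in the high. The high libraries are far from the rest, and the low and middle libraries do not overlap. The log2 difference between high and low was 8.65 (SE 0.42, adjusted p 1.4e-13). The phosphatase gene HAI1, the late embryogenesis abundant (LEA) gene LEA7, the caleosin gene RD20, which encodes a lipid-droplet protein, and the dehydrin gene RAB18 rose by 7.62, 7.52, 7.40 and 7.02 on the log2 scale (SE 0.57, 0.52, 0.83 and 0.40), with no overlap between groups. They are described with the genes that change in order. TSPO, a membrane protein with a tryptophan-rich sensory domain, rose from 1.06 ± 0.197 to 186 ± 17.3 CPM (SD, n = 3 each). The transcription factor gene MYB121 rose from 0.211 ± 0.243 to 33 ± 0.948 CPM. The remaining members of the 10 were AT4G33467 (uncharacterized), AT3G03341 (annotated as cold-regulated) and AT4G33905 (Mpv17/PMP22 family), at log2 differences of 7.36, 7.18 and 6.88.

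The 10 largest falls, taken by the same rule, were led by AT2G43140, a basic helix-loop-helix (bHLH) transcription factor gene. It stood at 82.1, 81.2 and 69.4 CPM in the low libraries, 29.9, 54.4 and 41.6 CPM in the middle and 1.07, 0.543 and 0.842 CPM in the high. No library of a group reached into another group. The log2 difference between high and low was -6.53 (SE 0.31, adjusted p 8.4e-14). The receptor gene PYL6 fell by 5.45 (SE 0.31) and the WRKY factor gene WRKY72 by 5.80 (SE 0.54). CYP735A2, which encodes a hydroxylase of trans-zeatin type cytokinin synthesis, went from 10.2 ± 1.51 to 0.438 ± 0.428 CPM (log2 difference -4.41, SE 0.45). IMS2, a methylthioalkylmalate synthase gene of glucosinolate synthesis, went from 13 ± 5.24 to 0.595 ± 0.383 CPM (log2 difference -4.47, SE 0.47). AT3G61400 (an oxygenase), AT4G33720 (CAP superfamily), AT4G19720 (glycosyl hydrolase), AT4G20000 (VQ motif) and AT2G28690 lay between -4.99 and -4.55.

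The receptor genes mostly moved down and the phosphatase genes up. Of 14 receptor genes, 10 passed the filter on low counts, and 7 of these fell while 1 rose, with a median log2 difference of -2.03. Over all genes, 10.1% fell and 10.4% rose. PYL4 stood at 471, 540 and 512 CPM in the low libraries, 507, 583 and 538 in the middle and 26.6, 24.2 and 25.1 CPM in the high. The low and middle libraries overlap and the high libraries lie far below both. Its log2 difference was -4.33 between high and low (SE 0.17, adjusted p 2.2e-15) and 0.10 in the lower step, from aba2-3 mock to Col-0 mock (SE 0.15, adjusted p 0.86). PYL5 fell by 2.85 (SE 0.14) and PYR1 by 1.93 (SE 0.19), and neither was called in the lower step. PYL1 and PYL8 fell by 1.01 and 0.87. PYL6 was the receptor gene called in the lower step as well. It stood at 71.1, 73.4 and 72.9 CPM in the low libraries, 33.2, 29.8 and 36.1 CPM in the middle and 1.48, 1.24 and 2.26 CPM in the high, so the groups follow each other without overlap. Its lower step was -1.13 (SE 0.25, adjusted p 0.012) and its upper step, from Col-0 mock to Col-0 ABA, was -4.32 (SE 0.30, adjusted p 1.7e-10). The lower step lost its call without Col-0 mock shoot replicate 2 (-1.06, adjusted p 0.053), without aba2-3 mock shoot replicate 2 (-1.13, 0.052) and without aba2-3 mock shoot replicate 3 (-1.14, 0.057).

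PYL9 went the other way. It stood at 38.3, 38.9 and 39.8 CPM in the low libraries, 39.2, 33.5 and 30.2 CPM in the middle and 91.7, 97.5 and 81.3 CPM in the high (log2 difference 1.21, SE 0.13, adjusted p 1.8e-07). The high libraries lie above the others, which overlap. Set per exon length, the order of the receptor levels changed. In the low group PYL4 was highest at 444 ± 12.6 RPKM (reads per kilobase of exon, scaled to library size), above PYL5 at 168 ± 10.7. In the high group PYL9 was highest at 79.9 ± 9.53 RPKM, followed by PYL8 at 61.7 ± 21.5, which overlaps it within 1 SD, and PYR1 at 31 ± 4.13. PYL2, at 1.27 CPM or less in every library, fell by 2.12 with an adjusted p of 0.043 and lost that call in 5 of the 6 fits without 1 library, at 0.072 to 0.17: those without Col-0 ABA shoot replicates 2 and 3 (-1.62 and -1.94) and without aba2-3 mock shoot replicates 1, 2 and 3 (-2.15, -2.03 and -2.05). PYL7 shares 51.2% of its exon sequence with AT4G01030, so its 15.5 to 34 CPM are uncertain. PYL10 to PYL13 did not pass the filter.

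**Figure D1:**
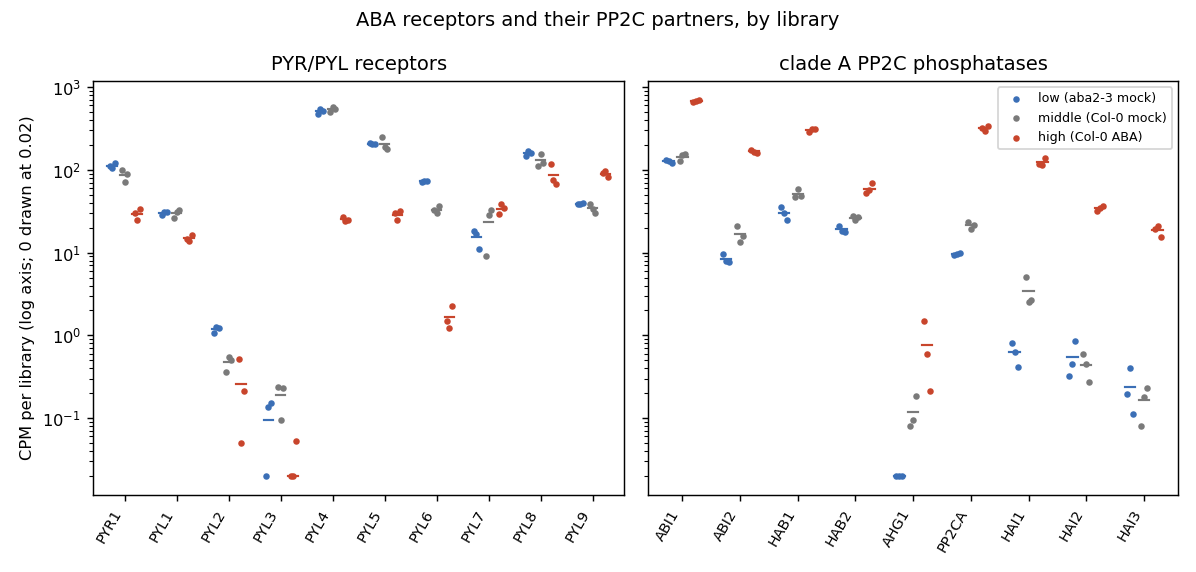
CPM (log axis) of the PYR/PYL receptor genes and the clade A PP2C phosphatase genes tested, with a dot per library and a bar at the mean of 3, in low (aba2-3 mock), middle (Col-0 mock) and high (Col-0 ABA) shoots. PYL4 drops from 508 to 25.3 CPM in the mean, while 9 of 9 phosphatase genes are higher in the high group.

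All 9 clade A PP2C genes rose, beside 10.4% of all genes. The median log2 difference was 5.04. AHG1 was at 0 counts in the low libraries and at 59 counts in the high ones together, at least 22.8-fold higher when the low group is set to 3 counts in all, and with that bound the list's median is 4.51. PP2CA stood at 9.3, 9.72 and 9.94 CPM in the low libraries, 23.7, 19.3 and 21.5 CPM in the middle and 321, 299 and 335 CPM in the high. The groups follow each other with no overlap. Its lower step was 1.15 (SE 0.15, adjusted p 6.4e-05) and its upper step 3.89 (SE 0.16, adjusted p 1.2e-14). HAI2 was at 0.326, 0.454 and 0.866 CPM in the low libraries, 0.602, 0.447 and 0.274 CPM in the middle and 31.7, 34.9 and 36.7 CPM in the high. Low and middle overlap for HAI2 and for HAI3, and neither lower step was called (log2 -0.29, adjusted p 0.93, and -0.44, adjusted p 0.85). ABI1 was the highest of the 9 per length in each group, from 60.6 ± 4.51 RPKM in the low to 297 ± 3.21 RPKM in the high group.

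In the lower step 4 of the 9 were called (1.78% of all genes rose there): PP2CA, HAI1, ABI2 and HAB1. The same 4 were called in the upper step, so they rose in order. PP2CA kept its lower step in each of the 6 fits without 1 library. ABI2 (1.01, SE 0.24, adjusted p 0.025) lost it without Col-0 mock shoot replicate 1 (0.81, adjusted p 0.18) and without aba2-3 mock shoot replicates 2 and 3 (0.96 and 0.93, adjusted p 0.14 and 0.18). HAB1 (0.75, SE 0.16, adjusted p 0.012) lost it without Col-0 mock shoot replicate 2 (0.65, 0.064) and without aba2-3 mock shoot replicates 2 and 3 (0.74 and 0.61, 0.067 and 0.14).

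Of 10 SnRK2 kinase genes downstream, 2 rose and 1 fell, beside 10.4% and 10.1% of all genes, with a median log2 difference of -0.13. SnRK2.7 stood at 19.4, 16.4 and 21.7 CPM in the low, 33.2, 10.3 and 17.5 CPM in the middle and 62.9, 70.7 and 90 CPM in the high libraries (log2 difference 1.96, SE 0.31, adjusted p 4.8e-05). The high libraries lie above the rest. SnRK2.2, SnRK2.3 and SnRK2.6, the kinases most strongly activated by ABA, had log2 differences of -0.21, -0.30 and 0.63 (adjusted p 0.19, 0.26 and 0.065). SnRK2.8 was called lower at -0.75 (adjusted p 0.011) and lost the call without Col-0 ABA shoot replicate 1 (-0.61, 0.082) or replicate 2 (-0.56, 0.10). It shares 9.2% of its exon sequence with another gene.

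The bZIP factor genes and the genes of their AFP partners, proteins that bind ABI5, rose together. Of 12 tested, 10 rose and 1 fell (median 2.05), beside 10.4% and 10.1% of all genes. AFP1 stood at 5.45, 5.09 and 5.01 CPM in the low, 18.2, 16 and 9.97 CPM in the middle and 242, 244 and 235 CPM in the high libraries. The order of the groups holds without overlap. Its lower step was 1.51 (SE 0.19, adjusted p 4.5e-05) and its upper step 4.02 (SE 0.20, adjusted p 4.3e-13). AFP3 rose by 3.92 in all, with a lower step of 1.2 (SE 0.15), and ABF3, which encodes a factor of ABA-dependent transcription, by 2.99 with a lower step of 0.93 (SE 0.17, adjusted p 0.0027). The lower steps of AFP1, AFP3 and ABF3 were called in all 6 fits without 1 library. GBF3 (0.92) and AFP4 (0.79) completed the 5 that rose in order. GBF3 lost its lower step without Col-0 mock shoot replicate 1 (0.75, adjusted p 0.091) and aba2-3 mock shoot replicates 2 (0.88, 0.075) and 3 (0.76, 0.13), and AFP4 without Col-0 mock shoot replicate 1 (0.54, 0.05) and aba2-3 mock shoot replicate 3 (0.71, 0.061).

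ABF2 and ABF4, relatives of ABF3, rose without a called lower step. ABF2 stood at 27.2, 29.9 and 25.4 CPM in the low, 29.7, 24.8 and 27.3 CPM in the middle and 103, 94.4 and 109 CPM in the high libraries (log2 difference 1.90, adjusted p 7e-09). Low and middle overlap and high lies above both. ABI5, the factor of seed and seedling arrest, rose by 2.8 (adjusted p 1.2e-08) without a called lower step (0.47, adjusted p 0.41). ABF1 (0.67, adjusted p 0.017) lost its call without Col-0 ABA shoot replicate 1 (0.65, 0.05) and aba2-3 mock shoot replicate 2 (0.67, 0.059). AREB3 was called lower at -0.45 (adjusted p 0.04) and lost the call in 5 of the 6 fits without 1 library, all but the one without Col-0 ABA shoot replicate 1 (-0.44 to -0.25, adjusted p 0.077 to 0.3).

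Stress factors of the HD-ZIP, NAC and MYB families rose in 13 of 15 genes and fell in 0 (median 2.21), beside 10.4% and 10.1% of all genes. RD26, a NAC factor of dehydration responses, stood at 51.7, 64.5 and 60.8 CPM in the low, 50.5, 65.6 and 60.8 CPM in the middle and 649, 710 and 637 CPM in the high libraries. Low and middle overlap, and high stands apart. RD26 rose by 3.5 (SE 0.21, adjusted p 1e-11) between high and low. NAC019 rose by 5.22, MYB102 by 5.78, MYB41 by 5.81, HB7 by 4.07 and HB12 by 3.94. None of the 15 rose in the lower step at the threshold, although HB12 (1.12, adjusted p 0.051) and NAC019 (1.35, adjusted p 0.058) came close. NAP, a NAC factor of leaf senescence, was called lower in that step and is described with the opposite steps. MYB44 shares 33.8% of its exon sequence with another gene, so its level is uncertain.

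Genes that make, break down and move ABA showed mixed calls. Over all genes, 10.4% rose and 10.1% fell. These 3 lists are short, so their counts describe single genes and are not read as results about the lists. NCED3, which encodes the stress-induced dioxygenase of ABA synthesis, stood at 13.6, 14.7 and 15.6 CPM in the low, 17.3, 13.6 and 18.2 CPM in the middle and 50.7, 40.8 and 49.5 CPM in the high libraries (log2 difference 1.68, SE 0.30, adjusted p 0.00018). Low and middle overlap. Of 9 synthesis genes tested, 3 rose and 1 fell, but only the NCED3 call was kept in every fit without 1 library: ABA1 lost it without aba2-3 mock shoot replicate 3 (0.89, adjusted p 0.07), NCED9 without Col-0 ABA shoot replicate 1 (1.61, 0.073) and aba2-3 mock shoot replicate 2 (1.62, 0.089), and NCED5 in every fit but that without Col-0 ABA shoot replicate 3 (-3.13 to -2.36, adjusted p 0.087 to 0.18).

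Of 7 breakdown and conjugation genes, 3 rose and 1 fell, beside 10.4% and 10.1% of all genes. CYP707A1 and CYP707A2 encode hydroxylases that inactivate ABA. CYP707A2 stood at 0.946, 1.32 and 1.21 CPM in the low, 2.77, 6.31 and 6.22 CPM in the middle and 9.8, 10.5 and 14.2 CPM in the high libraries, in order without overlap. It rose by 3.31 (SE 0.50) in all and by 2.15 in the lower step (SE 0.49, adjusted p 0.015), a call lost without Col-0 mock shoot replicate 2 (1.96, 0.053) and aba2-3 mock shoot replicates 2 (2.24, 0.067) and 3 (2.17, 0.097). CYP707A1 rose by 2.21, with both steps called (0.95 and 1.26), and the lower call was lost without Col-0 mock shoot replicates 1 and 2 and aba2-3 mock shoot replicates 2 and 3 (0.72 to 0.97, adjusted p 0.05 to 0.15). UGT71C5, which encodes a glucosyltransferase that conjugates ABA, fell by 0.80 (adjusted p 0.002). Among 7 transporter genes 2 rose and 1 fell, beside the same shares of all genes. The exporter gene ABCG25 went from 5.64 ± 0.352 through 10.2 ± 2.08 to 38 ± 5.03 CPM (log2 difference 2.75, SE 0.23), and its lower step (0.85, adjusted p 0.039) lost its call in every fit but that without Col-0 mock shoot replicate 3 (0.71 to 0.9, adjusted p 0.079 to 0.2). ABCG22, the other rise (1.51, adjusted p 0.047), lost its call in all 6 fits without 1 library (1.34 to 1.71, adjusted p 0.056 to 0.17). The importer gene NPF4.6 fell by 0.76 (adjusted p 0.00098).

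**Figure D2:**
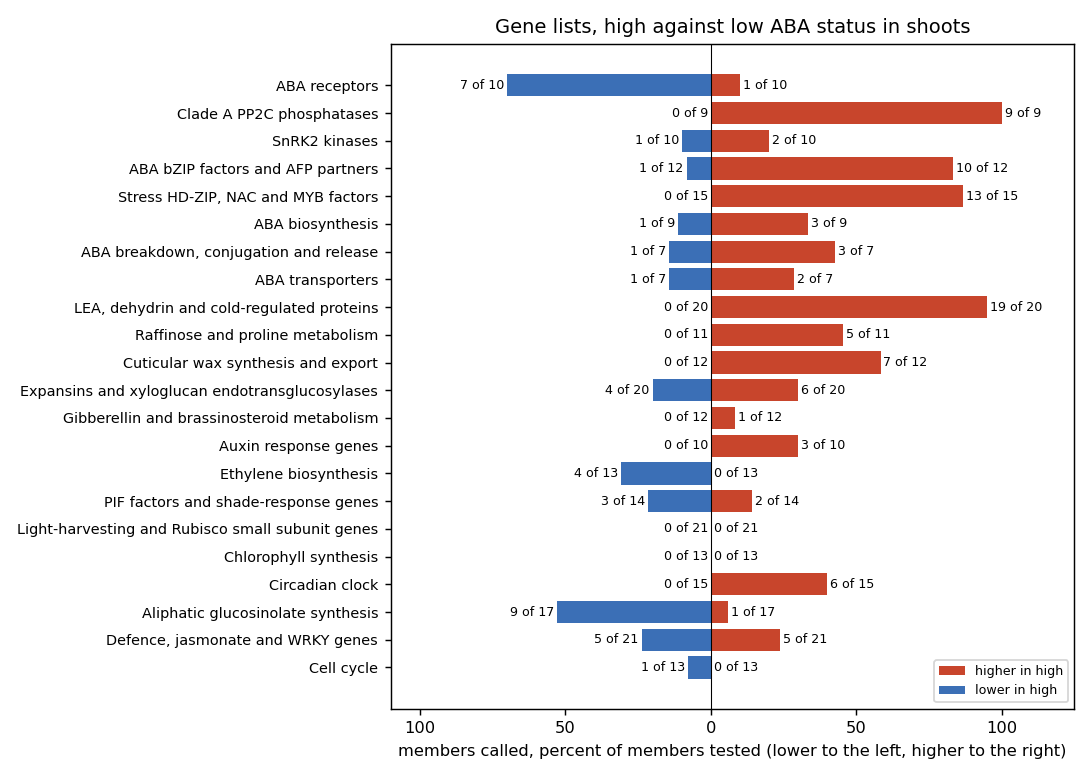
Members of 22 gene lists called between high and low ABA status in shoots, as a percentage of the members tested, with counts at the bars (higher to the right, lower to the left). Among all 22156 genes tested, 10.4% were higher and 10.1% lower.

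Protective genes rose almost throughout. Of 20 LEA, dehydrin and cold-regulated genes, 19 rose and 0 fell (median 2.89), beside 10.4% and 10.1% of all genes. RD29B stood at 4.8, 5.09 and 3.88 CPM in the low, 6.3, 6.2 and 7.64 CPM in the middle and 122, 146 and 166 CPM in the high libraries. The groups are in order without overlap, yet the lower step was small and missed the threshold (0.55, adjusted p 0.49). RD29A began high: it stood at 865, 568 and 760 CPM in the low, 788, 781 and 487 CPM in the middle and 2714, 3874 and 3184 CPM in the high libraries (log2 difference 2.16, adjusted p 6.3e-07). Low and middle overlap. LEA4-5 rose by 5.50, COR15A, a chloroplast protein gene of cold acclimation, by 5.82, and the seed genes EM1 and EM6 by 5.6 and 3.23. RAB18 and LEA7 were the list's 2 members called in the lower step. COR413IM1 was the member not called (0.96, adjusted p 0.22). The summed level of 9 seed storage and oil body markers was 2.14 to 3.46 CPM in the low, 13.7 to 22.7 in the middle and 2.68 to 10.4 in the high group. In the lower step 2 of the 9 were called higher, beside 1.78% of all genes, and 1 between high and low. Their part in the lower steps was not tested.

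Of 11 genes of raffinose and proline metabolism, which yield solutes that protect cells, 5 rose and 0 fell (median 0.94), beside 10.4% and 10.1% of all genes. P5CS1, the rate-limiting enzyme gene of proline synthesis under stress, stood at 10.2, 9.13 and 7.83 CPM in the low, 11.1, 15.3 and 16.5 CPM in the middle and 72, 82.8 and 96 CPM in the high libraries. All libraries are in order, and the log2 difference was 3.21 (SE 0.27, adjusted p 3.4e-09). ProDH2, a proline dehydrogenase gene, rose mainly in the lower step: it went from 16 ± 1.6 CPM in the low to 47 ± 26.1 CPM in the middle and 36.9 ± 4.67 CPM in the high group (lower step 1.56, SE 0.27, adjusted p 0.0019; upper step -0.35, adjusted p 0.48).

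Cuticular wax genes rose in 7 of 12 tested and fell in 0 (median 1.54), beside 10.4% and 10.1% of all genes. CER1, which encodes the alkane-forming enzyme, stood at 61.9, 37 and 30.8 CPM in the low, 258, 230 and 232 CPM in the middle and 510, 756 and 664 CPM in the high libraries. The groups are in order without overlap. CER1 rose by 3.89 in all (SE 0.58, adjusted p 2.1e-05) and by 2.47 in the lower step (SE 0.55, adjusted p 0.013), a call lost without aba2-3 mock shoot replicates 2 (2.36, 0.11) and 3 (2.27, 0.14). The elongase genes KCS2 and KCS1 rose by 2.14 and 1.60, the reductase genes KCR1 and CER10 by 0.78 and 0.75, and CER4 by 2.93. WSD1 (2.2, adjusted p 0.029) lost its call without Col-0 ABA shoot replicate 3 (2.04, 0.079) and aba2-3 mock shoot replicates 2 (2.06, 0.11) and 3 (2.18, 0.095). Libraries of 8 of the 12 genes were in strict order, beside 2.87% of all genes. Fitted on the libraries of the high and low groups alone, 12 of 12 were called higher. That fit called 3055 genes higher where the fit of all libraries called 2301, and its number of genes tested is not reported here. The summed level of 4 shoot epidermis markers moved the same way, 1153 to 1293 CPM in the low, 1702 to 1972 in the middle and 2283 to 2755 in the high group, with 0 of 4 called and none at 0. Their part in the wax result was not tested.

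Growth-related genes were split. Of 20 expansin and xyloglucan endotransglucosylase genes, 6 rose and 4 fell, beside 10.4% and 10.1% of all genes. EXPA11 stood at 66.9, 54.5 and 54.8 CPM in the low, 164, 127 and 112 CPM in the middle and 213, 210 and 180 CPM in the high libraries, in order without overlap (log2 difference 1.77, SE 0.24, adjusted p 4.8e-06). XTH33 went from 72.1 ± 8.76 and 82.8 ± 16.5 to 27.3 ± 5.83 CPM (-1.4, SE 0.26, adjusted p 0.00031). EXPA1 and XTH20 fell by 1.47 and 1.70, and XTH17, XTH18 and XTH19 rose by 1.10, 0.79 and 1.35. EXPA4, EXPA15 and XTH4 were called at adjusted p of 0.045, 0.037 and 0.04, and these calls were lost in most fits without 1 library. EXPA4 kept its call only without Col-0 ABA shoot replicate 2 (otherwise 0.56 to 0.66, adjusted p 0.067 to 0.12), and EXPA15 only without that library or aba2-3 mock shoot replicate 1 (otherwise -0.71 to -0.52, 0.11 to 0.23). XTH4 lost it in all 6 (0.89 to 1.1, 0.055 to 0.12). Of 12 gibberellin and brassinosteroid genes, GA2ox6, a gibberellin-inactivating oxidase gene, rose by 1.09 (adjusted p 0.00018) and the other 11 were not called. Of 10 auxin response genes IAA2, IAA5 and GH3.5 were called higher (0.57, 1.2 and 0.53). None of the 3 was called without Col-0 ABA shoot replicate 3 (0.55, 1.1 and 0.62, adjusted p 0.057, 0.12 and 0.056) or aba2-3 mock shoot replicate 2 (0.57, 1.15 and 0.59, adjusted p 0.062, 0.13 and 0.088), and IAA2 alone was without Col-0 ABA shoot replicates 1 and 2 and aba2-3 mock shoot replicate 3.

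Ethylene synthesis genes fell in 4 of 13 and rose in 0, beside 10.1% and 10.4% of all genes. ACO3, an ACC oxidase gene, stood at 5.91, 5.95 and 7.49 CPM in the low, 2.09, 0.893 and 2.1 CPM in the middle and 1.48, 1.28 and 1.84 CPM in the high libraries. The low libraries lie above the rest, which overlap. Its fall was -2.07 in all (SE 0.38, adjusted p 0.00024), -2.01 in the lower step (SE 0.37, adjusted p 0.0026) and -0.06 in the upper step (adjusted p 0.96). ACO4 fell in both steps (-0.84 and -0.72), and its lower call was lost in every fit but that without Col-0 mock shoot replicate 2 (-0.89 to -0.7, adjusted p 0.1 to 0.27).

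PIF and shade-response genes were called in 5 of 14, 2 higher and 3 lower, beside 10.4% and 10.1% of all genes. HFR1 (1.12), HB2 (-0.64) and PRE6 (-1.02) lost their calls in some fits without 1 library: HFR1 without aba2-3 mock shoot replicates 1 and 3 (1.13 and 1.1, adjusted p 0.069 and 0.085), HB2 without Col-0 ABA shoot replicates 2 and 3 and aba2-3 mock shoot replicates 1 and 2 (-0.61 to -0.44, 0.054 to 0.16), and PRE6 without Col-0 ABA shoot replicates 1 and 2 and aba2-3 mock shoot replicates 2 and 3 (-0.94 to -0.8, 0.071 to 0.12). PIL1, a bHLH gene induced by shade, stood at 29.7, 29.7 and 32 CPM in the low, 4.98, 12.8 and 10.8 CPM in the middle and 5.52, 10.3 and 8.58 CPM in the high libraries (log2 difference -1.91, SE 0.43, adjusted p 0.0019). The low libraries lie above the rest. HY5, a factor of light-grown development, rose by 0.83 (adjusted p 0.00026), most of it in the lower step (0.70, adjusted p 0.012). That lower call was lost without Col-0 mock shoot replicate 2 (0.63, 0.053) and aba2-3 mock shoot replicates 2 (0.73, 0.051) and 3 (0.63, 0.11). PIF1, PIF3, PIF4, PIF5 and PIF7 were not called.

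Photosynthesis genes depended on the fit. Of 21 light-harvesting and Rubisco small subunit genes, 0 were called in the fit of all 30 libraries, with a median log2 difference of -0.88. Fitted on the high and low libraries alone, 20 were called lower, among 2606 genes in all, and with covariates for the RNA of the other tissue 18 were, among 1626. The fit of all libraries called 2242 of 22156 genes lower (10.1%) and 2301 higher (10.4%). The cause was not tested. RBCS1B, a Rubisco small subunit gene, stood at 1224, 2049 and 1793 CPM in the low, 224, 777 and 1031 CPM in the middle and 321, 364 and 584 CPM in the high libraries (log2 difference -2.0, adjusted p 0.17). The high libraries lie below every low library. CAB1 had 21639, 34671 and 23884 CPM in the low and 18742, 17155 and 19238 CPM in the high libraries, again without overlap. Members of these families share exon sequence, so single values are uncertain. Of 13 chlorophyll synthesis genes, 0 were called in the fit of all libraries. In the fit of both groups alone 1 was called higher and 5 lower, among 3055 and 2606 genes in all. The number of genes tested in that fit is not reported here, so no share is set beside its counts.

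Clock genes rose in 6 of 15, with 0 falls, and 4 of the 6 rose in the lower step. Over all genes, 10.4% rose and 10.1% fell between high and low, and 1.78% rose in the lower step. CCA1, a morning-expressed MYB factor gene, stood at 24.8, 16.4 and 7.31 CPM in the low, 41.9, 96.8 and 70.4 CPM in the middle and 124, 123 and 118 CPM in the high libraries. The groups are in order without overlap. CCA1 rose by 2.91 in all (SE 0.40, adjusted p 6.7e-06) and by 2.11 in the lower step (SE 0.39, adjusted p 0.003). LHY, its close relative, rose by 1.58 and PRR9 by 2.24 in the lower step (adjusted p 0.0017 and 0.0011), and all 3 were called there in each of the 6 fits without 1 library. RVE1 rose there by 1.30 (adjusted p 0.018) and lost that call without Col-0 mock shoot replicates 1 and 2 and aba2-3 mock shoot replicates 2 and 3 (1.12 to 1.31, adjusted p 0.054 to 0.18). LNK1 (1.55) and PRR5 (1.4) rose between high and low, and LNK1 in the upper step (1.03, adjusted p 0.007). TOC1, the evening-expressed partner of CCA1 and LHY, had a log2 difference of -0.20 (adjusted p 0.44). PRR9 shares 36% of its exon sequence with another gene.

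Aliphatic glucosinolate genes fell in 9 of 17 tested and rose in 1 (median -1.82), beside 10.1% and 10.4% of all genes. Of these falls, MAM1 lost its call without Col-0 ABA shoot replicate 1 (-3.17, adjusted p 0.069) and aba2-3 mock shoot replicate 2 (-2.61, 0.1). IMD1 lost it without Col-0 ABA shoot replicates 1 and 3 and aba2-3 mock shoot replicates 2 and 3 (-1.67 to -1.31, 0.077 to 0.12). In the upper step 1 fell and 1 rose (median 0.23). In the lower step 8 fell and 0 rose (median -1.75), where 0.853% of all genes fell. Without aba2-3 mock shoot replicate 2 the lower step kept 4 of these 8, losing MYB28 (-1.16, adjusted p 0.16), IPMI1 (-2.43, 0.055), IMD1 (-1.8, 0.19) and CYP79F2 (-3.62, 0.17). IMD1 and CYP79F2 kept that call only without aba2-3 mock shoot replicate 1. MYB28, the main regulator of the pathway, stood at 11.4, 16.4 and 13.5 CPM in the low, 5.34, 5.93 and 5.49 CPM in the middle and 0.621, 1.24 and 0.684 CPM in the high libraries. The groups are in order without overlap. MYB28 fell by 4.03 in all (SE 0.39, adjusted p 2.3e-08), by 2.74 in the upper step and by 1.30 in the lower step (adjusted p 0.031), the last lost in every fit but that without aba2-3 mock shoot replicate 1 (-1.34 to -1.16, adjusted p 0.073 to 0.16). The enzyme genes had small levels. IMS2 stood at 7.47, 13.7 and 17.9 CPM in the low, 1.45, 1.25 and 1.83 CPM in the middle and 0.379, 1.04 and 0.368 CPM in the high libraries, with a lower step of -3.14 (SE 0.41, adjusted p 6.4e-05) called in all 6 fits without 1 library. BCAT4, IPMI2 and CYP83A1 also kept their lower steps in all 6 (-4.43, -2.89 and -3.70). BCAT4 shares 27.9% of its exon sequence with another gene. With root and shoot RNA scores as covariates, IMD1, CYP79F2 and CYP83A1 were not called between high and low (adjusted p 0.25, 0.11 and 0.16). SOT18, a sulfotransferase gene of the last step, rose by 0.79 (adjusted p 0.0038).

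Defence and jasmonate genes were called in 10 of 21, with 5 in each direction, beside 10.4% higher and 10.1% lower of all genes. WRKY70, a factor gene of salicylate signalling, stood at 60.9, 53.8 and 66.5 CPM in the low, 63.8, 50.2 and 41.5 CPM in the middle and 19, 17.4 and 19.2 CPM in the high libraries (log2 difference -1.70, SE 0.22, adjusted p 2.5e-06). High lies below both, which overlap. VSP2, a jasmonate-induced storage protein gene, went from 2.12 ± 0.549 through 8.87 ± 2.55 to 25.5 ± 6.18 CPM (log2 difference 3.58, SE 0.61, adjusted p 0.00012). CBP60G, a regulator gene of salicylate synthesis, fell by 2.09 (adjusted p 0.0057). LOX2, WRKY53 and JAZ10 were called at adjusted p of 0.024, 0.028 and 0.043, and lost these calls in most fits without 1 library. LOX2 kept its call only without Col-0 ABA shoot replicate 2 (otherwise -1.9 to -1.5, adjusted p 0.059 to 0.12). WRKY53 kept it without Col-0 ABA shoot replicate 3 and aba2-3 mock shoot replicate 2 (otherwise -1.39 to -1.24, 0.095 to 0.15), and JAZ10 without Col-0 ABA shoot replicates 1 and 3 (otherwise 0.78 to 1.02, 0.076 to 0.14). Of 13 cell cycle genes, CYCB1;2 was called (-0.71, adjusted p 0.011), and not without Col-0 ABA shoot replicate 2 (-0.62, 0.052) or 3 (-0.58, 0.067). The summed level of 9 guard cell markers was 92.1 to 112 CPM in the low, 43 to 95.7 in the middle and 49.7 to 52.2 in the high group, with 0 of 9 called and none at 0. Vascular markers summed to 291 to 341 CPM, 295 to 347 and 431 to 504 CPM, with 3 higher and 1 lower of 5.

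The middle step shows where Col-0 mock shoots lie between both ends. The lower step called 583 genes (2.63%), 394 higher and 189 lower in Col-0 mock (1.78% and 0.853%). The upper step called 2137 (9.65%), 1103 higher and 1034 lower (4.98% and 4.67%). Both steps share the Col-0 mock libraries, so they are not independent of each other. Of the 2301 rising genes, 1963 (85.3%) had their middle mean between the ends, as did 1898 (84.7%) of the 2242 falling genes. Over all 2301 rising genes the middle mean lay at a median 37.8% of the way from low to high on the log2 scale. Over all 2242 falling genes it lay at a median 33.3% of the way. So the middle group lay nearer to the low end for 1258 rising and 1275 falling genes, and nearer to the high end for 705 and 623. Against the midpoint of high and low, 438 genes were called (1.98%), with the middle group above the midpoint in 212 (0.957%) and below it in 226 (1.02%). Among the rising genes this comprised 112 nearer to the low end and 4 nearer to the high end, with 84 beyond the low end and 24 beyond the high end.

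**Figure D3:**
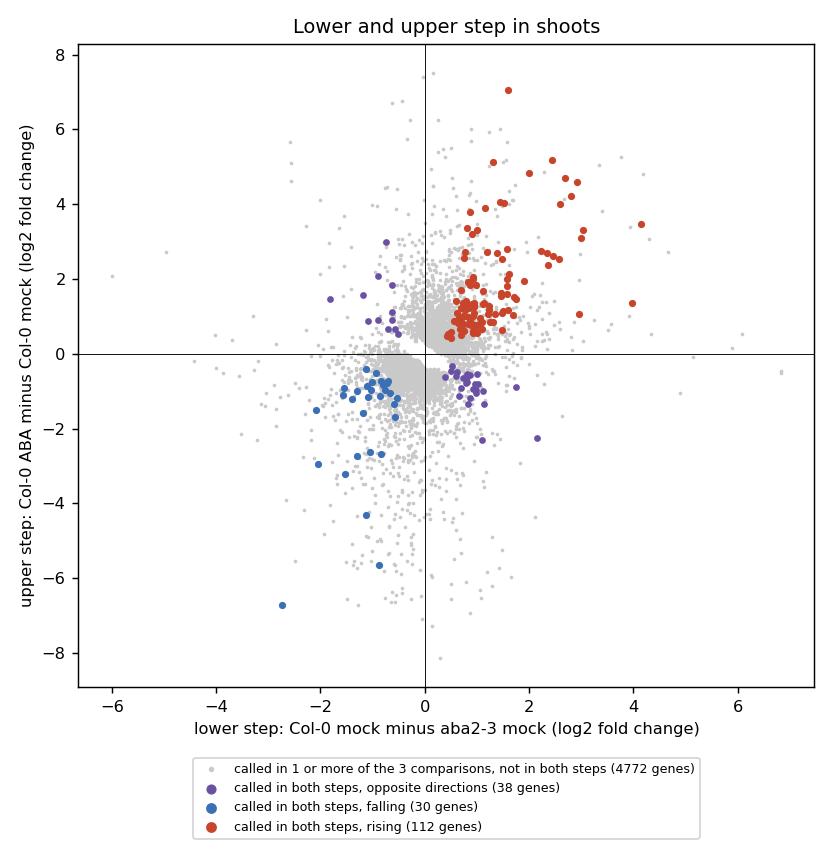
Lower step (Col-0 mock minus aba2-3 mock, x axis) and upper step (Col-0 ABA minus Col-0 mock, y axis) as log2 fold changes for the genes called in at least 1 of the 3 comparisons. The 112 genes rising and 30 falling in both steps are coloured, as are the 38 called in opposite directions. Both axes share the Col-0 mock libraries.

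In order meant called in both steps in the same direction. By this rule 142 genes changed (0.641% of all tested), of which 112 rose (0.506%) and 30 fell (0.135%). Of these, 108 and 27 also had their 3 low, 3 middle and 3 high libraries in strict sequence. Over all genes 2.87% did so rising and 2.04% falling, but the same libraries chose the ordered genes, so their sequence and the position of their middle mean are a description only. The median difference between high and low was 2.4 for the rising and -2.26 for the falling genes, and their middle mean lay at a median 46.3% and 46.1% of the way. The set depended on single libraries. Without Col-0 mock shoot replicate 1 it held 57 rising and 11 falling genes, without replicate 2 of that group 70 and 9, and without replicate 3 it held 99 and 7. Without aba2-3 mock shoot replicate 2 it held 44 and 7, and without replicate 3 of that group 41 and 5. In all 9 fits without 1 library, 26 of the 112 and 3 of the 30 were called in both steps.

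The genes named here are the 8 in each direction with the largest smaller step among those in strict sequence with an average log2 CPM of at least 3. Below that level, 6 rising genes had smaller steps above the 2.0 of the last one named. They were AOX2 (3.48), AT3G55580 (3.04), AT1G04560 (2.52), AT3G15534 (2.36), AT2G17680 (2.34) and AT1G69480 (2.23). Among falling genes below that level, AT5G52710 (-2.73) and MYB28 (-1.3) had smaller steps beyond the -1.09 of the last one named. Of the 8 rising genes, LEA7, RAB18, AT3G56275 and AT1G73480 were called in both steps in all 9 fits. RAB18 (AT5G66400) encodes a dehydrin induced by ABA. It stood at 0.587, 0.545 and 0.264 CPM in the low, 2.45, 3.23 and 4.21 CPM in the middle and 45.6, 65.5 and 72.1 CPM in the high libraries. The steps were 2.8 (SE 0.39, adjusted p 0.00013) and 4.21 (SE 0.33, adjusted p 1.3e-09), with no overlap between neighbouring groups. LEA7 (AT1G52690) encodes an LEA protein. It stood at 0.555, 0.591 and 0.565 CPM in the low, 5.18, 2.14 and 5.95 CPM in the middle and 72.5, 120 and 122 CPM in the high libraries. Its steps were 2.91 (SE 0.48, adjusted p 0.0011) and 4.6 (SE 0.44, adjusted p 3.7e-08). Again the groups stand apart.

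AT3G56275 is annotated as a transcribed pseudogene. It stood at 0.979, 1 and 0.527 CPM in the low, 5.82, 4.31 and 5.26 CPM in the middle and 70.4, 69.5 and 107 CPM in the high libraries, with steps of 2.6 (SE 0.36, adjusted p 0.00014) and 4.01 (SE 0.33, adjusted p 3.6e-09). AT1G73480 encodes an alpha/beta hydrolase. It stood at 14, 10.2 and 7.53 CPM in the low, 45, 85.6 and 43.2 CPM in the middle and 434, 383 and 257 CPM in the high libraries, and its steps were nearly equal at 2.45 (SE 0.37, adjusted p 0.00034) and 2.62 (SE 0.36, adjusted p 1.4e-05). Both genes rise without overlap.

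ASG4, a MYB-like factor gene of the family that holds CCA1 and LHY, had the largest smaller step of the 8. It stood at 1.24, 0.545 and 0.753 CPM in the low, 5.82, 9.16 and 5.49 CPM in the middle and 82, 56.5 and 37.8 CPM in the high libraries. The steps were 2.99 (SE 0.63, adjusted p 0.0092) and 3.09 (SE 0.57, adjusted p 0.00056), and the lower was lost without aba2-3 mock shoot replicate 2 (2.76, 0.082) and replicate 3 (2.89, 0.091). The libraries do not overlap. RD20 (AT2G33380) stood at 3.92, 4.13 and 4.37 CPM in the low, 25.2, 35.4 and 19.4 CPM in the middle and 643, 729 and 728 CPM in the high libraries. Its lower step of 2.69 (SE 0.68, adjusted p 0.033) was lost in all fits but the one without Col-0 mock shoot replicate 3 (adjusted p 0.081 to 0.18, values 2.43 to 2.74).

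HAI1 (AT5G59220), a PP2C gene, stood at 0.816, 0.636 and 0.414 CPM in the low, 5.14, 2.52 and 2.7 CPM in the middle and 119, 114 and 139 CPM in the high libraries. Its lower step of 2.43 (SE 0.53, adjusted p 0.012) was lost without Col-0 mock shoot replicate 1 (2.04, 0.077) and aba2-3 mock shoot replicates 2 (2.44, 0.067) and 3 (2.2, 0.11). AT3G27250, uncharacterized, had a lower step of 2.0 (SE 0.52, adjusted p 0.039), lost in every fit but that without Col-0 mock shoot replicate 3 (1.6 to 2.33, adjusted p 0.051 to 0.21). The libraries of both genes follow the order of the groups without overlap.

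**Figure D4:**
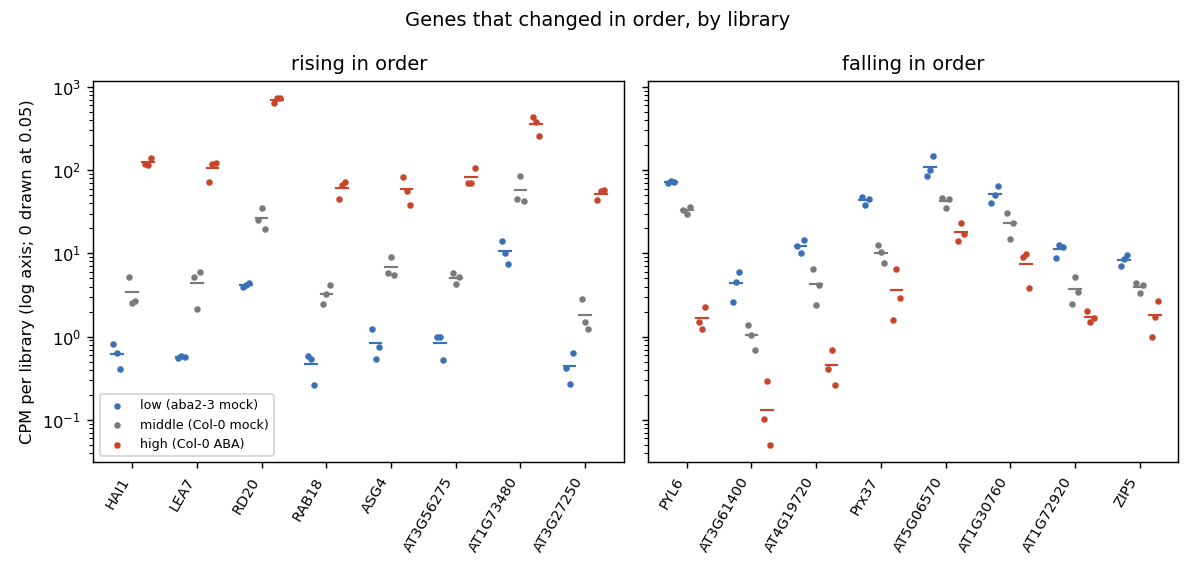
CPM (log axis) of the 8 rising and 8 falling genes that changed in order, ranked in the text by their smaller step, with a dot per library and a bar at the mean of 3 in low, middle and high shoots. RAB18 goes from 0.465 through 3.3 to 61.1 CPM, and PYL6 from 72.5 through 33 to 1.66 CPM.

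Falling in order was rarer. Prx37 (AT4G08770) encodes a class III peroxidase, an enzyme family of the cell wall. It stood at 47.1, 38.2 and 45.6 CPM in the low, 12.6, 10.4 and 7.73 CPM in the middle and 1.59, 6.42 and 2.89 CPM in the high libraries. The groups do not overlap. Its steps were -2.09 (SE 0.32, adjusted p 0.00041) and -1.51 (SE 0.33, adjusted p 0.0031), called in all 9 fits without 1 library, though the upper step was not called in the fit of those groups alone (-1.44, adjusted p 0.11). It shares 7% of its exon sequence with AT4G08780. AT5G06570, an alpha/beta hydrolase gene, fell by 1.39 and 1.22, and its lower call was lost without aba2-3 mock shoot replicate 3 (-1.14, 0.081).

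AT3G61400 stood at 2.61, 4.5 and 5.95 CPM in the low, 1.37, 1.06 and 0.686 CPM in the middle and 0.103, 0.296 and 0 CPM in the high libraries (steps -2.04 and -2.94, adjusted p 0.015 and 0.0094). Its average log2 CPM was 4.18 over all 30 libraries, roots included, which is above its level in these shoots. AT4G19720 stood at 12.3, 10.2 and 14.3 CPM in the low, 6.46, 2.43 and 4.16 CPM in the middle and 0.414, 0.692 and 0.263 CPM in the high libraries (steps -1.52 and -3.21, adjusted p 0.049 and 0.00022). Neither has overlapping groups, and both calls were fragile. For AT3G61400 the lower step was lost without Col-0 mock shoot replicates 2 and 3 and aba2-3 mock shoot replicates 2 and 3 (-2.05 to -1.75, adjusted p 0.06 to 0.14), and the upper step without Col-0 ABA shoot replicates 1 (-2.68, 0.062) and 3 (-2.41, 0.061). For AT4G19720 the lower step was called in 1 of 6 fits, that without Col-0 mock shoot replicate 1, and the others gave -1.64 to -1.2 (adjusted p 0.081 to 0.22). AT1G30760 (berberine bridge enzyme family, steps -1.19 and -1.59), AT1G72920 (TIR domain, -1.56 and -1.11) and ZIP5 (a metal transporter gene, -1.09 and -1.16) also fell in order. They kept both calls in 5, 6 and 2 of the 9 fits without 1 library.

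Promoters of the first 6 rising and the first 2 falling genes in that ranking are shown because ABA-linked bZIP factors are known to bind ACGTG. Each sequence is the 250 bases upstream of the deposited gene start, 5′ to 3′ on the gene's strand, read from the RefSeq genome of TAIR10.1. Capitals mark ACGTG or its reverse complement CACGT, and CACGTG holds both.
ASG4, chr1:190346-190595, plus strand: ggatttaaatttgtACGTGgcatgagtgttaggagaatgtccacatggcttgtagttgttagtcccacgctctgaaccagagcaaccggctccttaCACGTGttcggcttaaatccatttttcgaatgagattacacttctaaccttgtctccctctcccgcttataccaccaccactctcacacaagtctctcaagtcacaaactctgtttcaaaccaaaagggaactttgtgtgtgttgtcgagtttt
LEA7, chr1:19619495-19619744, plus strand: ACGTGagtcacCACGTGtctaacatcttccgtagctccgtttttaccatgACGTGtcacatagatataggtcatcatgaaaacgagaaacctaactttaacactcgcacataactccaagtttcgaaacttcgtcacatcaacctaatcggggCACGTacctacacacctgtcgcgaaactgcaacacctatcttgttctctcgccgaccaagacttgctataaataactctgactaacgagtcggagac
RAB18, chr5:26519243-26519492, minus strand: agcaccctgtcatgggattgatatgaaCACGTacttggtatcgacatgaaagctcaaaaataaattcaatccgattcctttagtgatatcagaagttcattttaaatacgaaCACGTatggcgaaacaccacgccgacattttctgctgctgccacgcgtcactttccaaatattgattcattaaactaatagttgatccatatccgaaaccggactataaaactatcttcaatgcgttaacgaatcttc
RD20, chr2:14146472-14146721, minus strand: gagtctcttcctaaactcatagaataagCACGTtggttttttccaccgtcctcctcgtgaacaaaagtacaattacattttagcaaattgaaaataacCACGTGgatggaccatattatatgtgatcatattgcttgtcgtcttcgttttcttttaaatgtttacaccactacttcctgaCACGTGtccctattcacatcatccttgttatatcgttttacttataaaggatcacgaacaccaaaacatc
AT3G56275, chr3:20872581-20872830, plus strand: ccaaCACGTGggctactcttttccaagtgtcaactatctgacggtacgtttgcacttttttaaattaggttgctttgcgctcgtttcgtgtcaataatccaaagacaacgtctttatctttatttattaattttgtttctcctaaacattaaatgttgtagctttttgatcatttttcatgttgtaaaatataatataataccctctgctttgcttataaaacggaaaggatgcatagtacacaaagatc
AT1G73480, chr1:27628689-27628938, plus strand: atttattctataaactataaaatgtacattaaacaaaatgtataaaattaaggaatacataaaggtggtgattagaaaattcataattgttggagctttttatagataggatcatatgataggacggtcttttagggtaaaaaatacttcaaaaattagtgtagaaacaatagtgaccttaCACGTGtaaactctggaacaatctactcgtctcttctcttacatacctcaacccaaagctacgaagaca
AT3G61400, chr3:22718706-22718955, plus strand: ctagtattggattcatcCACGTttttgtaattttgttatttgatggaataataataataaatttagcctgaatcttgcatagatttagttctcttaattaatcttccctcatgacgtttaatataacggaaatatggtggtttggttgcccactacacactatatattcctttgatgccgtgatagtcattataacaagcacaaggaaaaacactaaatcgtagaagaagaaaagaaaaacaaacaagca
AT4G19720, chr4:10731751-10732000, minus strand: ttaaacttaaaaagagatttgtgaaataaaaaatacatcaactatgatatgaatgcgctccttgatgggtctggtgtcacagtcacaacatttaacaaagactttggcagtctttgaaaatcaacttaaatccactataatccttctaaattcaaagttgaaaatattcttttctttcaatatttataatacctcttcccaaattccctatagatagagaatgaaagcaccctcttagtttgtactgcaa

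All 6 rising promoters hold the motif, in 1 to 4 places. LEA7 has 4 places, RD20 has 3, and ASG4 and RAB18 have 2 each. Of the falling pair AT3G61400 has 1 place and AT4G19720 has 0. Counted over both strands, ACGTG was in 75 of the 112 promoters of rising genes (67%), in 11 of the 30 of falling genes (36.7%) and in 26.3% of 22030 promoters of genes tested. The longer ABA-response forms ACGTGGC or ACGTGTC, which overlap ACGTG, were in 37.5%, 3.33% and 9.02%. At least 2 places were found in 28.6%, 6.67% and 6.3%. Among all genes higher between high and low the share with ACGTG was 46.9%, among those at least 8-fold higher 67.9%, and among those lower 20.2%.

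Further motifs were counted in the same way. AAAATATCT, the evening element of clock-linked promoters, was in 5 of the 30 falling promoters (16.7%), in 0.893% of the rising ones and in 2.26% of all. CCGAC, the core bound by DREB factors, was in 24.1% of the rising, 16.7% of the falling and 14.2% of all promoters. TTGAC was in 39.3%, 33.3% and 45.2%, and TGTCTC in 15.2%, 10% and 12.2%, each over both strands. These are matches of letters and not sites shown to be bound.

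The genotype difference of the ordered genes could be read again in libraries whose values are in neither step. These were the Col-0 and aba2-3 shoots treated with 10 µM IAA for 2 h. They did enter the filter, scaling and spread of the fit that chose the genes, so they were not independent of that choice. Between the genotypes, 257 genes (1.16%) were called in these shoots. Of the 112 rising genes, 107 were higher in Col-0 there, 37 were called (0.673% of all genes were called higher) and 86 had no overlap between the genotypes. Their median was 0.68 on the log2 scale, beside 0 for all genes. Of the 30 falling genes, 30 were lower in Col-0, 14 were called (0.487% of all genes were called lower) and 28 had no overlap, at a median of -0.78. The share of all genes without overlap was not counted in the IAA shoots, so the 86 and the 28 are a description only. Between high and low shoots, 18.5% of all genes were higher and 24% lower without overlap. Prx37 stood at 28.7, 37.3 and 44.3 CPM in the aba2-3 IAA shoots and at 5.44, 4.08 and 2.9 CPM in the Col-0 IAA shoots (log2 difference -3.14, SE 0.34, adjusted p 1.2e-05). PYL6 stood at 61.1, 73.4 and 76.6 CPM and at 22.3, 27.8 and 23.5 CPM (-1.52, SE 0.25, adjusted p 0.002). AT3G56275 stood at 1.37, 0.999 and 2.07 CPM and at 6.5, 7.68 and 4.23 CPM (2.2, SE 0.39, adjusted p 0.0042). The genotypes do not overlap for these 3. RAB18 (1.32, adjusted p 0.13) and LEA7 (1.58, adjusted p 0.23) were not called. Without aba2-3 IAA shoot replicate 3, which holds 3.87 M counts and its root-signature genes at 7.68%, 17 and 7 genes were called. Without Col-0 mock shoot replicate 1, the ordered genes were chosen anew as 57 rising and 11 falling, of which 38 and 8 were called.

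**Figure D5:**
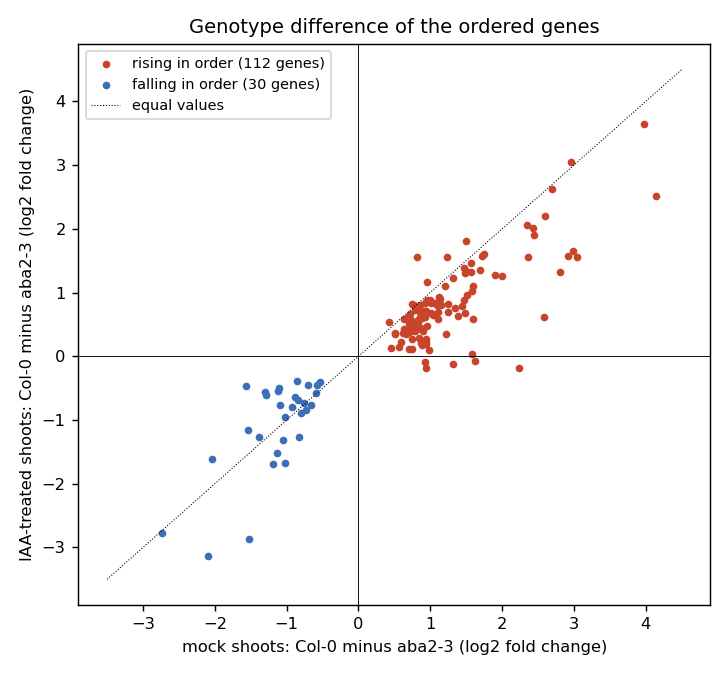
Genotype difference (Col-0 minus aba2-3, log2 fold change) of the 112 rising and 30 falling genes in mock shoots (x axis) and in IAA-treated shoots (y axis). The mock values are the lower step used to choose the genes, and the IAA values are in neither step. All these libraries entered the filter and the spread of the fit. 107 of the rising genes are above 0 and 30 of the falling genes below 0 on the y axis.

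In 38 genes (0.172%) the steps were called in opposite directions. The middle group was highest for 26 (0.117% of all tested) and lowest for 12 (0.0542%). AT1G72416, a DnaJ domain gene, stood at 25.8, 20.6 and 18.3 CPM in the low, 55.2, 40.4 and 41.9 CPM in the middle and 10.1, 10.5 and 7.21 CPM in the high libraries. All 3 middle libraries are above the others. Its steps were 1.09 (SE 0.22, adjusted p 0.0057) and -2.30 (SE 0.23, adjusted p 6.2e-08), the lower lost without aba2-3 mock shoot replicate 2 (1.05, 0.051) and 3 (0.97, 0.081). DIN2 (a beta-glucosidase gene), AT4G29140 (a MATE transporter gene) and AT3G46700 (a UDP-glycosyltransferase gene) had lower steps of 0.99 to 1.11 and upper steps of -1.05 to -0.96. The lower steps of these 3 were called in 2, 2 and 3 of 6 fits without 1 library. DIN2 and AT3G46700 also lost the upper step in 4 and 3 fits.

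AT5G41590, a LURP-one-like gene, was lowest in the middle. It stood at 19.8, 19.1 and 18.7 CPM in the low, 10.8, 8.61 and 5.99 CPM in the middle and 20.2, 30 and 24.8 CPM in the high libraries. The ends lie close together and the middle libraries lie below both. Its steps were -1.18 (SE 0.24, adjusted p 0.0068) and 1.56 (SE 0.24, adjusted p 6e-05), and the lower step was called in all 6 fits without 1 library. NAP stood at 28.6, 35.1 and 35.3 CPM in the low, 14.4, 18.5 and 19.9 CPM in the middle and 68, 72.3 and 85.5 CPM in the high libraries. The middle is again lowest without overlap, with steps of -0.90 (adjusted p 0.041, called again only without aba2-3 mock shoot replicate 1, otherwise -0.99 to -0.78 with adjusted p 0.059 to 0.23) and 2.09 (adjusted p 1.2e-06). NAP was far higher in aba2-3 mock roots than in these shoots, and the part of root RNA in its lower step was not tested. OZF1, a zinc finger gene, had steps of -0.75 and 3.00, and AT3G18170, a glycosyltransferase gene, of -0.89 and 0.89. Each kept its lower call in 3 of 6 fits.

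The genes farthest from the midpoint of high and low were taken among those whose middle mean lay between both ends. EDL3, an F-box gene of ABA signalling, stood at 1.24, 1.91 and 0.904 CPM in the low, 1.28, 1.8 and 1.65 CPM in the middle and 69.6, 71.8 and 61.5 CPM in the high libraries, so that its middle mean lay 2.57 below the midpoint on the log2 scale (SE 0.46, adjusted p 0.0017). Low and middle overlap. GolS2, AT4G33905 and COR15A were the other 3 named by the rule at that end, 2.74, 2.56 and 2.56 below the midpoint. GolS2 is also among the genes that rose in order (lower step 1.59, upper step 7.06), a pair of calls kept in 7 of 9 fits without 1 library. Its lower step was lost without Col-0 mock shoot replicate 1 (1.09, adjusted p 0.12) and aba2-3 mock shoot replicate 3 (1.4, 0.12). At the other end, AT4G13180, an oxidoreductase gene, stood at 29, 29.6 and 25.2 CPM in the low, 58.1, 65.4 and 57.6 CPM in the middle and 62.9, 63.5 and 64.5 CPM in the high libraries. Middle and high overlap and low lies below. Its middle mean lay 0.52 above the midpoint (SE 0.11, adjusted p 0.0076), a call lost without Col-0 mock shoot replicate 2 (0.44, 0.071). AT2G37870 (lipid-transfer family, 1.30), AT3G23470 (cyclopropane-fatty-acid synthase family, 0.99) and CSLA02 (a cellulose synthase-like gene, 0.54) lay above it too, with adjusted p of 0.043, 0.019 and 0.046, each lost in 5 or more of the 9 fits without 1 library. AT2G37870 rose in order as well, with steps of 3.97 and 1.36. AT3G23470 shares 9.6% of its exon sequence with AT3G23480.

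In roots, where the same groups were collected, high against low called 5128 genes (23.1%). Of the 112 genes rising in order in shoots, 101 were called higher there (12.1% of all genes were), and of the 30 falling genes 25 were called lower (11%). Their medians in roots were 2.16 and -1.54. Shoots and roots were cut apart, so libraries of both tissues may come from the same seedlings. The fit took them as independent. The difference between the tissues was tested directly, as shoot minus root (7.48% of all genes were called). It was called for 34 of the rising genes with the shoot difference above that of the root and for 13 below it, where 3.61% and 3.87% of all genes were. Of the falling genes, 15 were called with the shoot difference below that of the root and 1 above it. The genes were chosen for their shoot differences, which enter this test, so these counts describe them and support nothing. AT4G19720 fell by 4.74 in shoots and by 1.71 in roots, where it stood at 44.7, 70.3 and 65.5 CPM in the low and at 12.1, 15.5 and 27.4 CPM in the high libraries (shoot minus root -3.02, SE 0.68, adjusted p 0.0062). Neither tissue has overlap between high and low. Prx37 fell by 3.60 in shoots and by 0.92 in roots (shoot minus root -2.68, SE 0.45, adjusted p 0.00054). NAP rose by 1.19 in shoots and fell by 2.23 in roots, from 224, 273 and 373 CPM to 57.1, 67.3 and 61.5 CPM (shoot minus root 3.42, SE 0.34, adjusted p 2.4e-06). The high libraries lie above the low in shoots and below them in roots.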

How the data were processed

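Per the file headers, each deposited table gives a count, CPM and RPKM for 33602 genes. Counts are deposited as whole numbers. The deposited CPM equals the count scaled by the summed counts in 30 of 30 files, and the deposited RPKM equals that CPM over exon length in kilobases. The submitters' processing notes name STAR, Subread, featureCounts, edgeR, limma and TAIR10, with no roles, and whether counting used strand is not given in the sources used here. RNA was isolated with RNeasy and cDNA made with SMARTer, per the labels' protocols. Positions are as deposited. Read on TAIR10.1, 98.9% of 81547 introns began with GT and ended with AG.

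The members and lists were chosen with earlier results of these data known. Groups and replicate numbers come from the titles. Nothing says that replicates were separate cultures, so p-values measure the spread between these libraries. Tests used edgeR 4.0.16 (R 4.3.3, limma 3.58.1) quasi-likelihood F tests on all 30 libraries, 1 mean per group, TMM and filterByExpr (22156 genes), two-sided, with Benjamini-Hochberg adjustment within each comparison. The script was tested on simulated data. The SE was taken as the size of the log2 fold change divided by the root of its F value. CPM in the text uses TMM-scaled library sizes. RPKM in the text was computed from the deposited RPKM values. Shared exon sequence is the percentage of a gene's 50-base words found in another gene. Genes were named by rule: list members, the 10 largest rises and falls with average log2 CPM of at least 3 and no overlap, and, at the same minimum level, up to 8 in order by the smaller step, 4 at opposite steps, 4 near each end and 3 by tissue in each direction. That average is edgeR's over all 30 libraries, roots included. Alternatives were RLE factors, DESeq2 1.42.0, no filter, a mean count of at least 20, a 2-fold minimum, the compared groups alone, a replicate block, root and shoot RNA scores as covariates, and each library left out. Reading the ordered genes without 1 IAA library or without Col-0 mock shoot replicate 1 was added after seeing the data.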

Additional observations from a re-analysis of the deposited data

Results flagged for a closer look

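The effect of high against low ABA status differed between shoot and root for 1657 of 22156 genes (7.48%), by a test of the difference itself (edgeR adjusted p under 0.05). In 800 the shoot difference lay above that of the root and in 857 below it. Libraries of both tissues may come from the same seedlings, and the test took them as independent. The 3 largest in each direction, among genes with average log2 CPM of at least 3, follow.

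HDA14, annotated as a histone deacetylase, had a shoot minus root difference of -5.49 (SE 0.44, adjusted p 8.2e-08). It stood at 21.2 to 27.8 CPM in the low and 20.2 to 22.7 CPM in the high shoots, and at 0.59 to 1.52 CPM in the low and 27.8 to 45.5 CPM in the high roots. The genes DR4, CYP708A2 and ERF13 differed the other way, by 4.54, 3.80 and 3.46 (SE 0.57, 0.50 and 0.47), with shoot differences of 0.14, -0.37 and -0.01. In roots DR4 went from 244, 283 and 452 CPM to 16.4, 8.54 and 21.2 CPM.

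AT4G03130 was at -10.7 (SE 3.05, adjusted p 0.031). It rests on Col-0 ABA root replicate 1, with 482 CPM against 0.0475 and 0.902 CPM in the other 2 libraries of that group. Without it the difference was -2.41 (adjusted p 0.46). It also lost its call without Col-0 ABA shoot replicates 1, 2 and 3 (adjusted p 0.055 to 0.059) and aba2-3 mock shoot replicates 1 and 2 (0.18 and 0.066).

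AT4G25580 was at -8.29 (SE 1.84, adjusted p 0.0065). It was at 0 CPM in all 3 low root libraries and at 5.85 to 10.6 CPM in the high roots, so the fitted size depends on the prior count and is no bound. Its rise in shoots (2.35) lost its call without Col-0 ABA shoot replicate 1 (1.57, adjusted p 0.082).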

How the results depend on the processing

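High against low called 3213 to 3885 genes without 1 library, against 4543, and 2337 with a 2-fold minimum. The replicate block, which takes the replicate number as a term, gave 2296 higher and 2261 lower. Same-numbered libraries deviated together at r from -0.08 to 0.209 over 9 pairs, and 4 of 9 libraries correlated best with their own number. No pairing by number was evident, but so few libraries cannot exclude one.

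The upper step ranged from 1422 to 2338 without 1 library, with 1148 genes at a 2-fold minimum and 1209 (909 higher, 300 lower) in the compared groups alone. The lower step ranged from 134 to 701, with 1199 by DESeq2, 250 at 2-fold, 297 in the groups alone and 997 with root and shoot RNA scores as covariates. The midpoint contrast ranged from 257 to 418, with 800 by DESeq2, 184 at 2-fold and 280 in the groups alone. Genes in order ranged from 46 to 139, with 281 by DESeq2 (208 rising, 73 falling), 57 at 2-fold and 56 in the groups alone. Opposite steps ranged from 6 to 45, with 91 by DESeq2, 21 without a filter, 6 at 2-fold and 8 in the groups alone. The IAA shoot comparison ranged from 79 to 236, with 665 by DESeq2, 160 without a filter, 138 at 2-fold and 545 in the groups alone. Shoot minus root ranged from 1115 to 1658. The difference in ABA2 ranged from -0.33 to 0.09. The cause was not tested.

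The balance of high against low calls was 2513 higher to 2023 lower with RLE factors and 2699 to 1885 with the mean count minimum. Of 427 results on single genes, 263 kept their side of the threshold in all alternatives, 96 lost and 68 gained a call in at least 1, and 0 reversed. Each group holds 3 libraries. Depth limits genes near 0 in the low group, such as AHG1 at 0 counts.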
